A study of Mus musculus with 6 samples.

Results

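The genes described here encode the constitutive proteasome and the factors that assemble, activate, inhibit or supply it. They were taken by name: symbols that begin with Psma, Psmb, Psmc, Psmd, Psme, Psmf or Psmg and a digit, without the immunoproteasome genes Psmb8, Psmb9 and Psmb10, together with Pomp, Adrm1, Nfe2l1 and Ubqln1. The rule found 49 of the 12803 genes in the table, and no measured value entered it. All 49 were above 0 log2 CPM (read counts scaled to library size) in all 6 libraries and were tested. Of these, 48 encode proteasome subunits or factors known to act on it, and Psmc3ip, a meiotic recombination factor, shares only the letters of its symbol with them. Psma8 and Psmb11, the subunits of testis and thymus proteasomes, were not analysed here.

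Messenger RNA was sequenced from cultured mouse kidney cells, 3 libraries of a podocyte-derived line with a Myosin 1e knockout (KO) and 3 of the Mundel murine podocyte line (WT). Podocytes are the epithelial cells that cover the glomerular capillaries, and Myo1e encodes a membrane-binding actin motor that is mutated in steroid-resistant nephrotic syndrome. No treatment, age or passage is given in the labels, and a heterozygous genotype named in the design text was not analysed here. Each genotype is 1 cell line, so the genotype cannot be told apart from any other difference between the lines, and p-values measure the spread between 3 replicates that nothing ties to separate animals. In such bulk RNA a change in the mix of cells and a change of RNA per cell cannot be told apart.

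The proteasome degrades proteins that carry chains of ubiquitin. Its 20S core is a barrel of alpha and beta rings in which Psmb5, Psmb6 and Psmb7 hold the protease sites, and its 19S cap recognises, unfolds and feeds in the substrate with a ring of ATPases (Psmc genes) and a set of non-ATPase subunits (Psmd genes). In mammalian cells the transcription factor NRF1, made from Nfe2l1, is processed and enters the nucleus when proteasome activity falls short, and it then raises the transcription of proteasome subunit genes. In many cells interferon-gamma switches the protease subunits to the immunoproteasome forms. Podocytes are long-lived and rely on the proteasome and on autophagy to clear damaged proteins.

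The listed genes held 35447096 to 41360689 reads in the KO libraries and 35763961 to 42106461 in the WT libraries, so that 3 reads equal 0.0703 to 0.0856 CPM. Myo1e was at 18.9, 16.3 and 16.8 CPM in KO libraries, against 184, 180 and 168 CPM in WT libraries, the direction the labels give. The podocyte gene Nphs1 was not among the listed genes, and Wt1 was at 0.125 CPM in KO and 4.40 CPM in WT. The 6 listed of 8 podocyte markers summed to 620 to 828 CPM in KO libraries, against 1166 to 1386 CPM in WT libraries, and were split, with Podxl and Cd2ap higher in KO and Wt1, Synpo and Plce1 lower. The 6 simple-epithelium markers, all higher in KO, summed to 6276 to 6713 CPM in KO libraries, against 1.06 to 1.19 CPM in WT libraries. The 5 listed of 6 mesenchymal markers, all lower in KO, summed to 6.79 to 9.47 CPM in KO libraries, against 2528 to 2960 CPM in WT libraries. The 4 proliferation markers summed to 32.4 to 51.9 CPM in KO libraries, against 216 to 492 CPM in WT libraries. Endothelial markers were not listed, and of 4 leukocyte markers only Cd68 was, at 2.35 CPM in KO and 2.74 CPM in WT. The part of these differences in the results below was not tested. Within a group, the members' log2 CPM correlated at 0.992 or more between libraries, and between the groups at 0.947 to 0.964 (Pearson, across 49 genes, which are not replicates).

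Library KO replicate 3 stood apart in a way that touches short transcripts. The median difference of its log2 CPM from the mean of the other KO libraries was 0.165 in the 3117 genes with the shortest transcripts (57 to 1939 bases) and -0.156 in those with the longest (4521 bases or more). The members are short, with a median transcript of 1535 bases beside 3019 for all placed genes, and KO replicate 3 was above the mean of the others by a median of 0.16 over the members and 0.25 over the 14 core subunits. It held the highest KO value in 38 of 49 members and in all 14 core subunits.

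Many proteasome genes were modestly higher in the KO line. Of the 49 members, 28 passed as higher (57.1%) and 6 as lower (12.2%), with 15 not past the threshold (limma, adjusted p under 0.05). Over all 12616 genes tested, 34.3% passed as higher and 33.8% as lower, 68.1% in all. The median log2 fold change of the members was 0.25, beside 0.01 over all genes tested. The changes were small: 9 members were at least 1.5-fold higher and 2 at least 1.5-fold lower, where 20.7% and 23.9% of all genes were. All 3 KO libraries lay above all 3 WT libraries in 30 members and below them in 7, against 37.2% and 36.4% of all genes tested, 73.5% in all. The reads of all members summed to 7141, 7081 and 7500 CPM in KO libraries, against 5623, 5563 and 5858 CPM in WT libraries, 1.27-fold more in KO. The count of higher members depended on WT replicate 2: without that library 18 of the 49 passed as higher and 5 as lower. Calls over all 12616 genes fell as well, from 4329 to 3803 higher and from 4261 to 3770 lower. The members no longer called without WT replicate 2 were Adrm1, Psma7, Psmb1, Psmb5, Psmc4, Psmc6, Psmd4, Psmd6, Psmd13 and Psmf1, and Psmc3ip among the lower. Each of the first 10 has a log2 fold change of 0.42 or less, and all but Adrm1 and Psmc4 also lost the call without at least 1 other library. Without KO replicate 3, 23 members passed as higher and 7 as lower, beside 4128 and 4137 of all genes. Psmg1 was then among the lower at -0.35 (limma, adjusted p = 0.018), and the median log2 fold change of the members was 0.18. Psma3 and Pomp, which did not pass, then had log2 fold changes of -0.01 and -0.04. Psme4, with the longest transcript of the members, was lowest in KO replicate 3 among the KO libraries and had a log2 fold change of 1.03 without it.

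**Figure D1:**
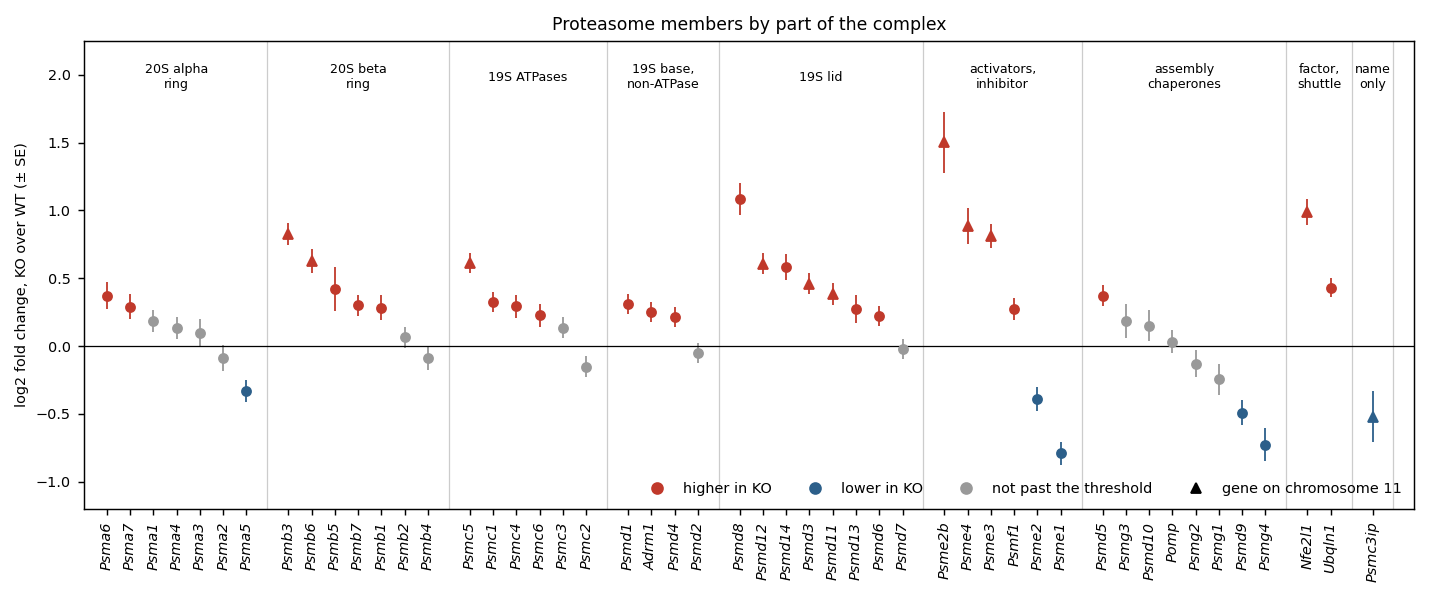
Log2 fold change of KO over WT (vertical axis, with SE) for the 49 members, grouped by part of the complex; red marks higher, blue lower and grey genes that did not pass, and triangles mark genes on chromosome 11. The 19S lid has 7 of 8 members above 0 and past the threshold, where 34.3% of all genes tested passed as higher. Psme1 and Psme2 lie below 0 beside Psme2b, Psme3 and Psme4.

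Where the members lie in the genome bore on these counts. Chromosome 11 carries 11 of the 49, of which 10 passed as higher, and Psmc3ip passed as lower. The median log2 fold change of all 1028 tested genes on chromosome 11 was 0.42, the highest of the 20 chromosomes compared, and 59.4% of them passed as higher. It was 0.43 in each KO library taken alone against the WT mean. The lowest medians were on chromosome 19 at -0.40 and chromosome 15 at -0.36, which carry no member. Off chromosome 11, 18 of 38 members passed as higher and 5 as lower, with a median log2 fold change of 0.18, where 32.2% and 35.2% of 11438 genes did. The median difference of its own chromosome was also subtracted from each gene, a setting chosen after seeing the data. With that, 15 of the 49 members passed as higher and 5 as lower. Of all 12466 genes in that setting, 3975 passed as higher and 4168 as lower, so the share of members higher was near that of all genes. The calls then lost were those of Adrm1, Psma5, Psma7, Psmb1, Psmb5, Psmb6, Psmb7, Psmc5, Psmc6, Psmd1, Psmd3, Psmd6, Psmd11, Psmd12 and Psmf1, while Psma1, at 0.22, was called higher (adjusted p = 0.027). The part of the chromosome-wide differences in the members' values was not tested.

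**Figure D2:**
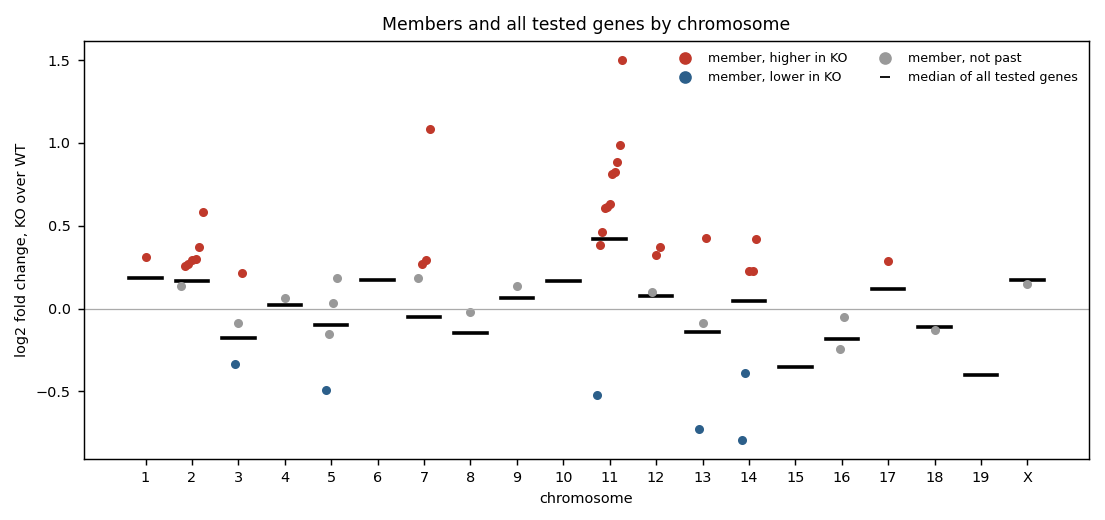
Log2 fold change of KO over WT (vertical axis) of each member by chromosome (horizontal axis; red higher, blue lower, grey not past), with a black bar for the median of all tested genes of that chromosome. Of the 9 members at least 1.5-fold higher, 8 lie on chromosome 11, where the bar stands at 0.42, and Psmd8 lies on chromosome 7.

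Nfe2l1, the gene of NRF1, had the highest level of all members in reads and was about 2-fold higher in KO. Its gene (ENSMUSG00000038615, protein-coding) spans chr11:96817414-96829968 of GRCm38 on the minus strand. It was at 1000.4, 934 and 900.1 CPM in KO libraries, against 521, 460 and 449 CPM in WT libraries. The lowest KO library lay far above the highest WT library. This is a log2 fold change of 0.99 (SE 0.10, limma, adjusted p = 3.3e-05), or 0.56 after subtraction of the chromosome median (adjusted p = 0.001). Ubqln1, a shuttle that carries ubiquitinated proteins to the proteasome, was at 214, 213 and 197 CPM in KO libraries, against 153, 157 and 154 CPM in WT libraries (log2 fold change 0.43, adjusted p = 0.00069). Its gene is on chromosome 13, where the median of all genes was -0.14, and its groups did not overlap either.

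The members' promoters were searched because NRF1 binds antioxidant response elements, with the core TGACNNNGC. The 250 bases before the start site were read on both strands from RefSeq (GRCm38.p6), with 1 window for each of the 42 members that matched. A core was found in 6 members (14.3%), and in 12.1% of 9938 listed genes and 10.2% of all 32851 windows, so the share among members was near the background. Its first bases also begin AP-1 and CRE sites, which TGACNNNGC does not tell apart. Shown here are the protease genes Psmb5 and Psmb6, Psmd12, which rose, and Psmd9, which fell, each 5′ to 3′ on the strand of its gene with the core in capitals.
Psmb5 (chr14:54617996-54618245, minus strand): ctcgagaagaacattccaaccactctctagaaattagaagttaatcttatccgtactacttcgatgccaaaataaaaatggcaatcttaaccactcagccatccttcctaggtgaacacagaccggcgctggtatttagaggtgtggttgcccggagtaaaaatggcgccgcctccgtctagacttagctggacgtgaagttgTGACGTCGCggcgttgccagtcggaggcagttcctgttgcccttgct
Psmb6 (chr11:70525107-70525356, plus strand): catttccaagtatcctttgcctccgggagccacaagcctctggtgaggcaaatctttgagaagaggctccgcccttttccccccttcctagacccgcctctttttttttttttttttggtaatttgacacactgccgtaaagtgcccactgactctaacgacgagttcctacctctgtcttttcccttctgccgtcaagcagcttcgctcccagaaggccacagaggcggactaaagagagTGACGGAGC
Psmd12 (chr11:107479278-107479527, plus strand): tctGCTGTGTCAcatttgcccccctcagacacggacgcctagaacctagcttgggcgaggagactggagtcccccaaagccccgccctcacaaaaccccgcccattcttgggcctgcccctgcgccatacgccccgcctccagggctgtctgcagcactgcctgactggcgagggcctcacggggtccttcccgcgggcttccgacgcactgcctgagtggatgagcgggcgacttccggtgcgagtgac
Psmd9 (chr5:123227940-123228189, plus strand): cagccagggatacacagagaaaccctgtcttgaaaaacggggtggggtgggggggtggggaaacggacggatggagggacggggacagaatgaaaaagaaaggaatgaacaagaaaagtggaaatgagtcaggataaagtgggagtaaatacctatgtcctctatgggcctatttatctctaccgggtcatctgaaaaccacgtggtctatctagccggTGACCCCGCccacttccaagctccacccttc
Counted from the start site, the first base of the core lies at -47 in Psmb5, -9 in Psmb6, -247 in Psmd12, there on the opposite strand, and -31 in Psmd9. Adrm1 and Psmc6 were the others with a core, and Psmd8, Psmb3 and Nfe2l1, with larger changes, had none in this window. The CCAAT box stood in 33.3% of members and 36.5% of listed genes, and the palindrome GAANNTTC of heat shock elements in 4.76% and 4.81%.

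In the 20S core, log2 fold changes ran from -0.33 to 0.83. Of its 14 listed subunits 7 rose (50%, against 34.3% of all genes tested) and 6 did not pass. The other 1, Psma5, fell (7.14%, against 33.8% of all genes tested). Without WT replicate 2, 4 of the 14 passed as higher and 1 as lower. With chromosome medians subtracted 3 passed as higher and 0 as lower. Of all genes, 3803 of 12616 and 3975 of 12466 passed as higher in those settings. The reads of the core summed to 1619, 1583 and 1893 CPM in KO libraries, against 1466, 1431 and 1479 CPM in WT libraries. In the alpha ring, which gates the barrel, Psma6 and Psma7 of 7 members rose, with log2 fold changes of 0.37 and 0.29. That is 28.6% of the ring higher, beside 34.3% of all genes tested, and 14.3% lower, beside 33.8%. Psma7 lost its call without WT replicate 1 or WT replicate 2. Psma5 was at 47.3, 48.5 and 52.8 CPM in KO libraries, against 65.5, 59.2 and 62.4 CPM in WT libraries (log2 fold change -0.33, SE 0.08, adjusted p = 0.0061), and at -0.14 with the median of chromosome 3 subtracted (adjusted p = 0.16). Psma1, Psma2, Psma3 and Psma4 had log2 fold changes between -0.09 and 0.18 and did not pass.

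In the beta ring 5 of 7 members rose (71.4%, against 34.3% of all genes tested) and none fell (0%, against 33.8%). Of the 7, 3 were higher without WT replicate 2 or WT replicate 3 and 1, Psmb3, with chromosome medians subtracted. In those settings 3803 and 4120 of 12616 genes and 3975 of 12466 genes were higher. Psmb3, a structural subunit, had the largest log2 fold change of the core at 0.83, with 86.5, 84.1 and 98.0 CPM in KO libraries, against 49.3, 51.6 and 50.3 CPM in WT libraries. The 3 protease subunits were all called higher, but with unequal support. Psmb6, which cuts after acidic residues, was at 156, 158 and 188 CPM in KO libraries, against 106, 110 and 107 CPM in WT libraries (log2 fold change 0.63, SE 0.09, adjusted p = 0.00028). Psmb7, which cuts after basic residues, was at 132, 129 and 146 CPM in KO libraries, against 111, 106 and 112 CPM in WT libraries (log2 fold change 0.30, SE 0.08, adjusted p = 0.0074). For both genes all KO libraries lay above all WT libraries. Psmb3 and Psmb6 lie on chromosome 11, and with the chromosome median subtracted Psmb6 was at 0.20 and did not pass (adjusted p = 0.083), while Psmb3 was at 0.39 (adjusted p = 0.0032). Psmb7, on chromosome 2, was at 0.13 on that measure and did not pass (adjusted p = 0.16). Over 34.9% of its length the Psmb7 transcript overlaps Nek6 on the opposite strand, a gene at 35.1 CPM in KO and 61.2 CPM in WT.

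Psmb5, which cuts after hydrophobic residues and is the main target of the drug bortezomib, was at 23.8, 19.3 and 30.2 CPM in KO libraries, against 19.6, 16.5 and 17.98 CPM in WT libraries. The groups overlapped, since KO replicate 2 lay below WT replicate 1. The call of a log2 fold change of 0.42 (SE 0.16, limma, adjusted p = 0.048) had the highest adjusted p among the subunits called. Without KO replicate 3 it was 0.25 (adjusted p = 0.14), and it also missed the threshold without KO replicate 1 (adjusted p = 0.10), WT replicate 2 (0.14) or WT replicate 3 (0.086). The adjusted p ranged from 0.011 to 0.14 over 16 alternatives, of which 9 kept the call. Psmb1 rose as well (log2 fold change 0.28, adjusted p = 0.02), and the structural subunits Psmb2 and Psmb4, at 0.06 and -0.09, did not pass.

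Of the 18 listed subunits of the 19S cap 14 passed as higher, none fell and 4 (Psmc2, Psmc3, Psmd2 and Psmd7) did not pass. That is 77.8% higher, beside 34.3% of all genes tested, and 0% lower, beside 33.8%. Without WT replicate 2, 8 of the 18 passed as higher, and with chromosome medians subtracted 6 did. Of all genes, 3803 of 12616 and 3975 of 12466 passed as higher in those settings. The reads of the cap summed to 3273, 3284 and 3505 CPM in KO libraries, against 2628, 2637 and 2857 CPM in WT libraries. The lid, which removes ubiquitin from the substrate, accounted for most of the difference, at 1417 ± 60 CPM in KO and 988 ± 63 CPM in WT (SD, n = 3 each). Of the 8 listed lid members 7 rose (87.5%, against 34.3% of all genes tested), or 3 with chromosome medians subtracted.

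Psmd8, a lid subunit, had the largest log2 fold change among the 32 listed core and cap subunits. Its gene (ENSMUSG00000030591, protein-coding) spans chr7:29174188-29180701 of GRCm38 on the minus strand. It was at 391, 352 and 422 CPM in KO libraries, against 160, 181 and 209 CPM in WT libraries. The KO libraries stood well clear of the WT libraries. That gives a log2 fold change of 1.08 (SE 0.11, limma, adjusted p = 5.2e-05), between 0.99 and 1.18 over 16 alternatives, and the median of all genes on chromosome 7 was -0.05. Psmd14, the enzyme of the lid that cuts off ubiquitin, was at 142, 139 and 168 CPM in KO libraries, against 98.5, 94.7 and 106 CPM in WT libraries (log2 fold change 0.58, adjusted p = 0.00062). Its gene is on chromosome 2, and after subtraction of the chromosome median the log2 fold change was 0.42 (adjusted p = 0.0048).

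Psmd12, Psmd3 and Psmd11, lid scaffolds encoded on chromosome 11, had log2 fold changes of 0.61, 0.46 and 0.38 and passed. After subtraction of the chromosome median they were at 0.18, 0.03 and -0.05 and did not pass (adjusted p = 0.073, 0.77 and 0.59). Psmd13 and Psmd6 rose by 0.27 and 0.23 on the log2 scale. Psmd7, the partner of Psmd14, was at 157, 162 and 166 CPM in KO libraries, against 157, 161 and 174 CPM in WT libraries and missed the threshold (log2 fold change -0.02, adjusted p = 0.81). A difference between these partners was not tested.

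Of the 6 ATPases that unfold the substrate, 4 rose (66.7%, against 34.3% of all genes tested) and none fell (0%, against 33.8%). The number that rose was 2 without WT replicate 2 (Psmc4 and Psmc6 lost) and 2 with chromosome medians subtracted (Psmc5 and Psmc6 lost). Psmc5, on chromosome 11, was at 160, 163 and 171 CPM in KO libraries, against 106, 103 and 114 CPM in WT libraries (log2 fold change 0.61, adjusted p = 0.00011), and at 0.18 with the chromosome median subtracted (adjusted p = 0.057). Psmc1, Psmc4 and Psmc6 had log2 fold changes of 0.32, 0.29 and 0.23. Psmc3, at 0.14, and Psmc2, at -0.15, did not pass. Among the 4 non-ATPase subunits of the base, the scaffold Psmd1 rose by 0.31 on the log2 scale and the ubiquitin receptors Adrm1 and Psmd4 by 0.25 and 0.21. Without WT replicate 2 only Psmd1 kept its call, and with chromosome medians subtracted only Psmd4 did. Psmd2, the other scaffold, which had the most reads of the cap genes in the WT line and over all 6 libraries, though Psmd8 averaged more in KO, was at 383, 380 and 391 CPM in KO libraries, against 387, 394 and 414 CPM in WT libraries. Its groups overlapped and it missed the threshold (log2 fold change -0.05, adjusted p = 0.58).

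**Figure D3:**
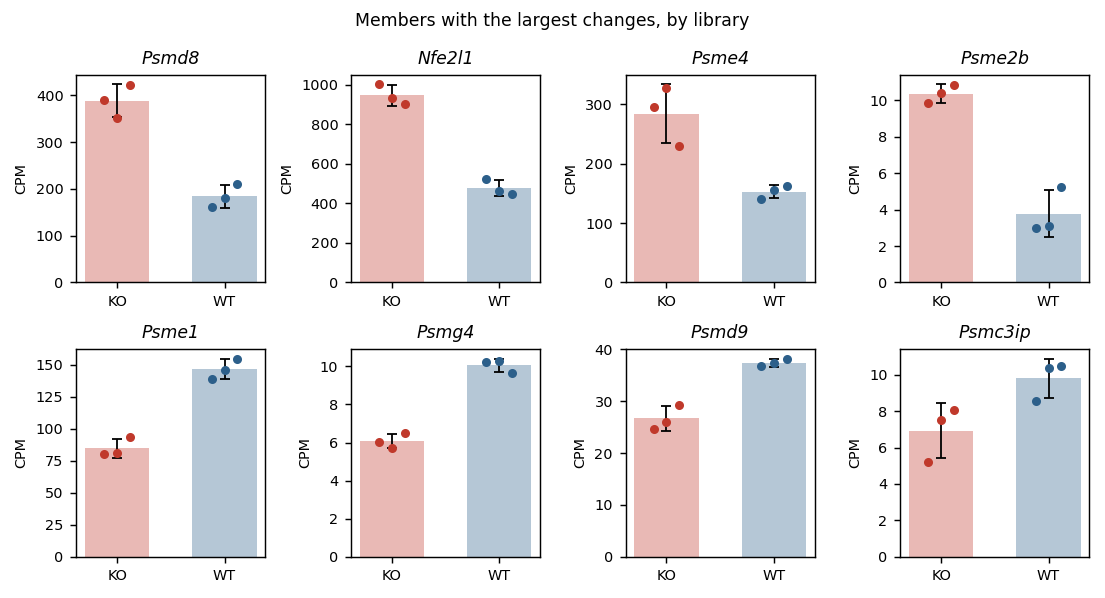
CPM (vertical axes, from 0) in the 3 KO libraries (red, left) and the 3 WT libraries (blue, right) for the 4 members with the largest rise and the 4 with the largest fall; bars are means, whiskers SD and points libraries. In each of the 8 panels the KO points and the WT points do not overlap, although for Psmc3ip they come close, with 8.07 CPM in the highest KO library and 8.57 CPM in the lowest WT library.

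The activators that open the core split into opposite directions. Psme1 and Psme2, the alpha and beta subunits of the interferon-inducible PA28 activator and neighbours on chromosome 14, fell. Psme1 (chromosome 14, 55578123 to 55581529, plus strand, GRCm38) was at 80.0, 81.2 and 93.5 CPM in KO libraries, against 139, 146 and 155 CPM in WT libraries (log2 fold change -0.79, SE 0.09, adjusted p = 6.4e-05). Psme2 was at 81.2, 75.3 and 90.3 CPM in KO libraries, against 106, 102 and 114 CPM in WT libraries (log2 fold change -0.39, SE 0.09, adjusted p = 0.0044). For both, every KO library lay below every WT library. Psme3, the nuclear PA28-gamma, was at 207, 207 and 188 CPM in KO libraries, against 104, 116 and 123 CPM in WT libraries (log2 fold change 0.81, SE 0.09, adjusted p = 5.8e-05). Psme4, the PA200 activator that acts on histones in the mouse testis, was at 295, 327 and 230 CPM in KO libraries, against 140, 155 and 163 CPM in WT libraries (log2 fold change 0.88, SE 0.13, adjusted p = 0.00038). Both are on chromosome 11 and passed with its median subtracted, at 0.38 (adjusted p = 0.0048) and 0.45 (adjusted p = 0.015). The inhibitor Psmf1 rose by 0.27 on the log2 scale (adjusted p = 0.016).

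Psme2b, a copy of Psme2 on chromosome 11 (48945354 to 48946190, minus strand), had the largest log2 fold change of all members at 1.502 (SE 0.22, adjusted p = 0.00041). It was at 9.84, 10.4 and 10.9 CPM in KO libraries, against 2.97, 3.08 and 5.26 CPM in WT libraries. Its values are uncertain because the coding bases differ from those of Psme2 at 5 of 717 positions (99.3% identical), and short reads of either gene can fall between such differences. The stretch from coding base 484 to 543 holds 3 of them, shown in capitals (GENCODE transcripts, 5′ to 3′).
Psme2: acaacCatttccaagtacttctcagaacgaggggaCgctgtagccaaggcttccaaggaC
Psme2b: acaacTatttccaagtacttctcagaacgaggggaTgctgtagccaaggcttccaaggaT
In the same annotation 41 bases of Psme2b also belong, on the same strand, to the gene 9930111J21Rik1, which was at 27.8 CPM in KO and 9.92 CPM in WT. The reads of Psme2b moved with that gene and against Psme2, and the part of shared bases in this was not tested.

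Most assembly chaperones did not pass. Of 8 listed, 1 rose (12.5%, against 34.3% of all genes tested), 2 fell (25%, against 33.8%) and 5 did not pass. Of all 12616 genes tested, 4026 did not pass. The reads of the chaperones summed to 306 ± 19 CPM in KO and 299 ± 3.3 CPM in WT (SD, n = 3 each). Psmg4, which helps to build the alpha ring with Psmg3, was at 6.004, 5.74 and 6.50 CPM in KO libraries, against 10.2, 10.3 and 9.67 CPM in WT libraries (log2 fold change -0.73, SE 0.12, adjusted p = 0.00084). Psmd9, a chaperone of the ATPase ring, was at 24.7, 26.1 and 29.3 CPM in KO libraries, against 36.7, 37.3 and 38.2 CPM in WT libraries (log2 fold change -0.49, SE 0.09, adjusted p = 0.0016). Psmd5, another chaperone of that ring, rose by 0.37 on the log2 scale (adjusted p = 0.0027). Pomp, which brings the beta subunits onto the alpha ring, was at 99.3, 94.6 and 113 CPM in KO libraries, against 100.5, 96.8 and 102 CPM in WT libraries, with overlapping groups (log2 fold change 0.03, SE 0.08, adjusted p = 0.74). The alpha-ring chaperones Psmg1, Psmg2 and Psmg3 and the ATPase chaperone Psmd10 had log2 fold changes between -0.25 and 0.19 and did not pass.

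Psmc3ip, matched by name only, was at 5.19, 7.53 and 8.07 CPM in KO libraries, against 8.57, 10.4 and 10.5 CPM in WT libraries (log2 fold change -0.52, SE 0.19, adjusted p = 0.038). The call was lost without KO replicate 1 (adjusted p = 0.12), KO replicate 2 (0.0501), WT replicate 2 (0.11) or WT replicate 3 (0.094), and after quantile normalization (0.13). Over 29.8% of its transcript it overlaps Mlx on the opposite strand, at 36.8 CPM in KO and 20.8 CPM in WT.

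The immunoproteasome subunits, which take the places of the 3 protease subunits, went the other way from them. Psmb8 averaged 83.9 ± 6.2 CPM in KO and 179 ± 7.0 CPM in WT (log2 fold change -1.10). Psmb9 averaged 19.2 ± 0.16 CPM in KO and 65.0 ± 4.9 CPM in WT (log2 fold change -1.76). Psmb10 averaged 15.2 ± 1.9 CPM in KO and 90.02 ± 8.4 CPM in WT (log2 fold change -2.57, SD, n = 3 each). All 3 passed (limma, adjusted p = 5.6e-06, 5.2e-07 and 3.2e-07) and their groups lay far apart. Within each library, the level per kilobase of transcript of each was divided by that of the subunit whose place it takes. Psmb8 to Psmb5 was 1.96 ± 0.48 in KO and 5.52 ± 0.47 in WT. Of the 50-base stretches of Psmb5, 57.1% also occur in transcripts of another gene, against 0% for Psmb8. The size of this ratio is therefore uncertain, and the part of shared stretches in it was not tested. Psmb9 to Psmb6 was 0.0681 ± 0.0068 in KO and 0.356 ± 0.033 in WT. Psmb10 to Psmb7 was 0.1001 ± 0.017 in KO and 0.725 ± 0.055 in WT (SD, n = 3 each). The ratios were thus lower in KO by 1.52, 2.39 and 2.87 on the log2 scale, with no overlap of the groups. An exact two-sided permutation test over the 6 libraries gave p = 0.1 for each, also adjusted over the 3 ratios, the smallest p that 3 libraries against 3 allow.

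**Figure D4:**
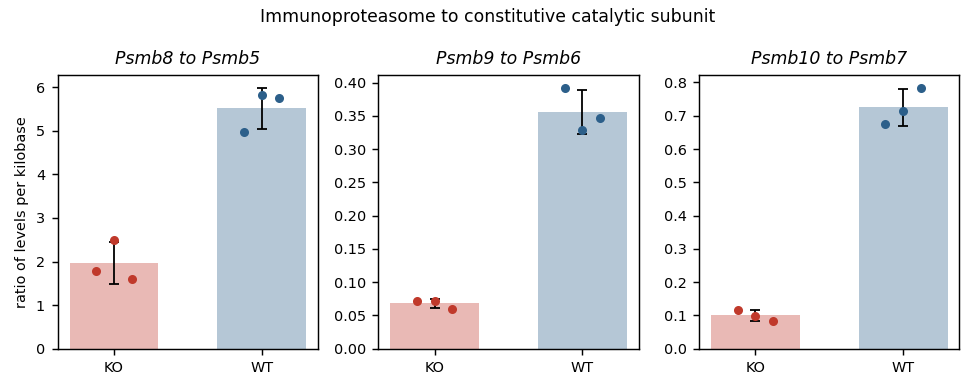
Ratio of the level per kilobase of each immunoproteasome subunit to that of the constitutive subunit it replaces (vertical axes, from 0), in the 3 KO libraries (red, left) and the 3 WT libraries (blue, right); bars are means, whiskers SD and points libraries. All KO points lie below all WT points in the 3 panels, with means of 0.1001 in KO and 0.725 in WT for Psmb10 to Psmb7.

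Other genes of the pathway rose and fell in equal number. Of 46 listed genes that supply, edit or work beside the proteasome, the immunoproteasome subunits included, 18 rose and 18 fell (39.1% each), close to the 34.3% and 33.8% of all genes, and the median log2 fold change was 0.03. Among 14 genes around NRF1, 6 rose and 5 fell (42.9% and 35.7%), also near the shares of all genes. With chromosome medians subtracted, Mafg (0.073), Nploc4 (0.15) and Btrc (-0.014) lost their calls, and Rela, at 0.49, was called higher. Nfe2l3, a close relative of Nfe2l1, was at 32.2, 28.2 and 24.2 CPM in KO libraries, against 0.422, 0.621 and 0.339 CPM in WT libraries (log2 fold change 5.89, SE 0.24, adjusted p = 1.7e-07). Maff, a small MAF partner of these factors, was at 89.2, 79.6 and 76.0 CPM in KO libraries, against 17.2, 23.1 and 38.4 CPM in WT libraries (log2 fold change 1.72, adjusted p = 0.00036). For both, the lowest KO library lay above the highest WT library. The genes that fell furthest were Ngly1, the glycanase that processes NRF1, at 20.3 ± 0.28 CPM in KO and 38.5 ± 3.2 CPM in WT, and Nfe2l2, the related factor NRF2, at 129 ± 8.0 CPM in KO and 234 ± 15 CPM in WT. Ddi2, the protease that cleaves NRF1, was not called (log2 fold change -0.17, adjusted p = 0.13).

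Of 6 genes of ubiquitin and its activation, 3 rose (50%, against 34.3% of all genes tested). Rps27a, which encodes ubiquitin fused to a ribosomal protein, was at 252, 258 and 343 CPM in KO libraries, against 127, 145 and 140.1 CPM in WT libraries (log2 fold change 1.04, adjusted p = 0.00011). Its KO and WT libraries did not overlap. The polyubiquitin gene Ubb, at 208 ± 17 CPM in KO and 201 ± 7.5 CPM in WT, did not pass, and the activating enzyme Uba1 rose by 0.44 on the log2 scale. Rps27a and Ubb both lie on chromosome 11. With the chromosome median subtracted Rps27a was at 0.61 (limma, adjusted p = 0.0029) and Ubb at -0.39 (adjusted p = 0.0035).

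Of 9 enzymes and adaptors bound to the proteasome 5 rose (55.6%, against 34.3% of all genes tested) and 2 fell (22.2%, against 33.8%). The number that rose was 2 without KO replicate 1 or WT replicate 2 and 3 without WT replicate 1. Zfand2a, an arsenite-inducible adaptor, was at 103 ± 3.7 CPM in KO and 51.2 ± 8.1 CPM in WT, and Txnl1 rose by 0.30 on the log2 scale. The tether Ecpas, at 134 ± 10 CPM in KO and 185 ± 1.3 CPM in WT, and Zfand5 fell. Of 5 shuttle receptors 2 rose, Ubqln2 at 0.71 and Rad23b at 0.26, and 2 fell, Ubqln4 at -0.39 and Ubxn1 at -0.25 (log2 fold changes). That is 40% in each direction, near the 34.3% and 33.8% of all genes tested. The call of Rad23b was lost without KO replicate 1, KO replicate 2, WT replicate 1 or WT replicate 2, and that of Ubxn1 without KO replicate 1, KO replicate 2, WT replicate 1 or WT replicate 3. Of 3 listed genes for the lid peptide Sem1 and for nuclear import and assembly, Sem1 rose by 0.25 on the log2 scale (adjusted p = 0.049, and up to 0.11 without KO replicate 3 or any of the WT replicates), the import factor Ipo9 fell by 0.58 and Akirin2 did not pass. Of 6 genes that transport or trim the peptides the proteasome makes, 4 fell (66.7%, against 33.8% of all genes tested). Among these were Erap1 at -1.12 and Tap1 at -0.91, while the cytosolic peptidase Thop1 rose at 0.53. The Tap1 and Psmb9 transcripts share 212 bases on opposite strands, so their reads may not be fully separate. With chromosome medians subtracted, Sem1, Uchl5, Usp5, Lap3, Ubqln4, Ubxn1 and Zfand5 of these lists lost their calls, and Ubxn1 and Zfand5, on chromosome 19, turned to 0.14 and 0.034.

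Levels can be compared between genes only per length, here per kilobase of a principal transcript in GENCODE M21. On that scale the 14 core subunits, which the particle holds in equal numbers, spanned 27.2 to 209.7 CPM per kilobase in KO and 20.1 to 159 in WT. Psmb5 was lowest in both lines, and the highest was Psmb6 in KO and Psma7 in WT. The 18 cap subunits spanned 41.6 (Adrm1) to 252 (Psmd8) in KO and 34.9 (Adrm1) to 135 (Psmd2) in the WT line. In WT, Psmd8 was at 119 CPM per kilobase, level with Psmc3 at 119.6 and between Psmd2 at 135 and Psmd4 at 112. In KO the next below it was Psmc3 at 132.

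**Figure D5:**
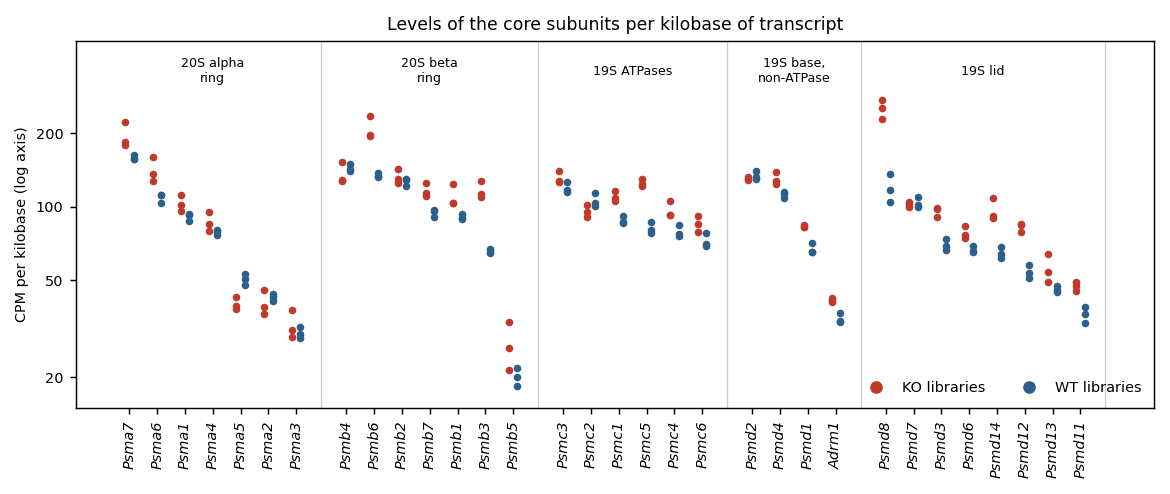
Level in CPM per kilobase of principal transcript (vertical log axis) of the 32 listed core and cap subunits in the 3 KO libraries (red, left of each pair) and the 3 WT libraries (blue, right), ordered within each part by the WT mean. Psmb5, at 27.2 in KO and 20.1 in WT, is the lowest, and Psmd8, at 252 in KO and 119 in WT, shows the widest gap between the lines.

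Sequence shared with other annotated genes, at other places or overlapping at the same one, makes some of these levels uncertain. Proteasome genes have many processed pseudogenes, and a read that fits more than 1 place may be dropped or assigned elsewhere, depending on settings not given in the sources used here. Of all stretches of 50 bases in the principal transcript, 57.1% in Psmb5, 55.8% in Psmb3, 54.5% in Psma5, 59.3% in Psme2, 69.3% in Psme2b and 78.0% in Adrm1 also occur in transcripts of another annotated gene. In 26 members none did and in 36 it was under 10%. Of those 36, 22 rose (61.1%) and 3 fell (8.33%), and of the other 13, 6 rose (46.2%) and 3 fell (23.1%). Of all genes tested, 34.3% rose and 33.8% fell. A difference between these sets of members was not tested. Most stretches of Psmb5, the lowest core subunit, are thus not unique, and their part in its level was not tested.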

How the data were processed

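RNA was extracted with an RNeasy Plus kit and made into Illumina stranded mRNA libraries, per the labels. Reads were processed with STAR 2.7.3a, Trimmomatic 0.39, Subread 1.6.4 with featureCounts, and edgeR, on build GRCm38, per the submitters' processing notes. The annotation, strand setting and filter were not given in the sources used here. The authors deposited log2 CPM with a prior count, 12803 genes by 6 libraries, with a lowest value of -5.26. Whole reads followed from the steps of the values (100% whole within 0.001 reads, prior of 1 read), and CPM in the text is these reads without the prior, over a library size scaled by the authors' factors (0.983 to 1.02). Depth was 35447096 to 42106461 reads in listed genes.

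The test was limma 3.58.1 (R 4.3.3) on the deposited log2 values with an intensity trend, KO minus WT, over the 12616 genes above 0 log2 CPM in at least 3 libraries, with Benjamini-Hochberg adjustment and a threshold of 0.05. On simulated reads for this comparison (12078 genes, dispersion 0.01) it called 100% of 100 genes changed 2-fold, 90% of 100 changed 1.5-fold and 9 of 11878 unchanged genes. Named in full are the 4 members with the largest rise and the 4 with the largest fall, the protease subunits, Nfe2l1, Pomp, Psme1, Psme2, Psme4 and the 3 with the most reads. From each pathway list up to 2 that rose and 2 that fell are named, and other genes were chosen after their values were seen; some values are not reported here. The members and lists were chosen with earlier results of these data known. Positions, transcripts (the APPRIS principal one, the longest where tied) and overlaps are from GENCODE M21, and 12655 symbols had a position and a transcript there. Ratios were compared with an exact permutation test (scipy 1.17.1).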

Additional observations from a re-analysis of the deposited data

How the results depend on the processing

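Of 28 members called higher, 18 passed in all 15 alternatives other than chromosome centring and 11 also in that. Of 6 called lower, 5 and 4 did. Leaving out a library gave 18 to 26 members higher and 5 to 7 lower, 12 to 19 other pathway genes higher and 16 to 19 lower, and 3803 to 4191 and 3770 to 4137 of all genes. With a change of at least 1.5-fold required, 9 and 2 members, 6 and 9 other pathway genes and 2611 and 3015 of all genes were called. Chromosome centring, added after seeing the data, left 15 members and 3975 of 12466 genes higher. It turned the sign of Psma2 (0.067), Psmb4 (0.11), Psmc3 (-0.030), Psmd10 (-0.025), Psmd11 (-0.051), Psmd2 (0.14), Psmd7 (0.14), Ubb (-0.39), Ubxn1 (0.14), Ufd1 (0.071) and Zfand5 (0.034). Over the libraries left out, the sign turned without KO replicate 3 for Pomp (-0.040 to 0.088), Psma3 (-0.0087 to 0.18) and Ubb (-0.010 to 0.11), and without WT replicate 3 for Psmd7 (-0.052 to 0.022). For these the cause was not tested. The log2 differences of the ratios were -1.70 to -1.38, -2.44 to -2.30 and -2.99 to -2.75 without single libraries. The replicate numbers did not pair the samples (correlations of same-numbered deviations 0.101, 0.081 and -0.095), and not every library correlated best with its own number. With the replicate block 28 members were higher and 6 lower, 13 and 18 other pathway genes, and 4218 and 4177 of all genes. Median centring, quantile normalization and removal of the scaling factors gave 25 to 29 members higher and 5 or 6 lower, a fit without the intensity trend 24 and 6, and voom on the recovered reads, a prior of 5 reads and other filters 28 and 6.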
